A study of Mus musculus with 6 samples.

Results

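The Rab genes encode the largest branch of the Ras superfamily of small GTPases. They were taken as every gene symbol made of Rab, a number and at most 1 letter from a to d, with repeated symbols summed. The pattern found 59 genes among the 23238 distinct symbols of the count tables. Transcripts were counted in the gastrocnemius, a mainly fast calf muscle, of wild-type mice labelled C57/BL6J at 26 months of age. For 30 days the animals received by mouth either farnesol at 350 mg/kg (3 libraries) or the vehicle, DMSO at 5% in normal saline (3 libraries). No transgene or deletion is named for either group, and the labels call the libraries biological replicates without saying that each came from its own mouse. All p-values therefore measure the spread between these libraries.

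A Rab protein switches between a GDP-bound form in the cytosol and a GTP-bound form on a membrane, where it recruits the effectors that bud, move, tether and fuse vesicles. Membrane attachment needs geranylgeranyl groups, which the Rab geranylgeranyl transferase adds to C-terminal cysteines while an escort protein presents the Rab. Geranylgeranyl diphosphate is made from farnesyl diphosphate, the activated form of farnesol. In muscle, Rab proteins are best known for moving the glucose transporter GLUT4 to the surface, for membrane repair and for the traffic of endosomes and lysosomes. The libraries report transcripts and say nothing of how much Rab protein carried its lipid.

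Depth was even, from 9895700 to 12707751 counts per library. Levels are given in CPM, counts over the total scaled by trimmed-mean factors and set to a common size, and group values are the mean ± SD of 3 libraries. All 15 fixed muscle fibre markers were measured, and together they held 192151 to 285242 CPM in vehicle and 226752 to 263132 CPM in farnesol libraries. Farnesol replicate 1 stood apart in its ribosomal RNA share and in a trend with transcript length. The ribosomal RNA precursor Rn45s took 4.97% of its counts against 9.92% to 15.4% in the other 5 libraries, and its deviations of log2 CPM across genes had a Spearman correlation of −0.245 with transcript length, against 0.0195 to 0.0952 in the others. Genes are not independent replicates, so this value is a description. Among the 41 tested Rab genes, vehicle replicate 2 was the lowest library in 14 and vehicle replicate 3 the highest in 13. Farnesol replicate 1 was the highest in 7 and the lowest in 5. When each library was left out in turn, the log2 fold change of 23 of the 41 tested Rab genes changed sign in at least 1 fit.

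Of the 59 Rab genes, 42 had at least 1 count in every library and 41 passed the filter on low counts and were tested. A further 12 had a few counts, and 6 (Rab17, Rab20, Rab25, Rab26, Rab38 and Rab44) had 0 counts in all 6 libraries. The Rab transcripts together summed to 2247 ± 90.9 CPM in vehicle and 2238 ± 99 CPM in farnesol libraries. A small set carried most of this sum. The combined share of Rab10, Rab12, Rab14, Rab2a, Rab6a and Rab7 was 71.5% ± 0.539 in vehicle and 70.7% ± 0.74 in farnesol libraries.

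Levels between genes were compared per kilobase of the longest annotated transcript, because the counts may depend on length. Whether counts from the QuantSeq kit named in the labels scale with length was not tested. Orders and shares per kilobase therefore hold only on that scale. On this scale, as means of the 6 libraries, Rab10 (chromosome 12, 3247428 to 3309969, mm10) led at 199.5 CPM per kb, with 176 in the lowest library. Rab10 is among the Rab proteins linked to the delivery of GLUT4 vesicles, and its role in this muscle was not tested. Rab12 (chromosome 17, 66494512 to 66519750), which directs the transferrin receptor to lysosomes, was the second at 123 CPM per kb, and its highest library, at 138, lay below the lowest of Rab10. Rab2a of the ER to Golgi route followed at 76.8 CPM per kb, with Rab7 of late endosomes at 54.7, Rab6a of the Golgi at 45.6 and the recycling gene Rab14 at 42.4. The 6 libraries of Rab7, Rab6a and Rab14 overlapped, so their order does not hold beyond the spread. Next came Rab3a, best known from synaptic vesicle release, at 28.8 CPM per kb and Rab24, an atypical Rab linked to autophagy, at 28.7, which overlapped as well. At the bottom of the tested genes, Rab8b, Rab27a and Rab30 stood at 0.54, 0.438 and 0.145 CPM per kb. Without the division by length the first 2 places were the same, and Rab14 was the third.

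**Figure D1:**
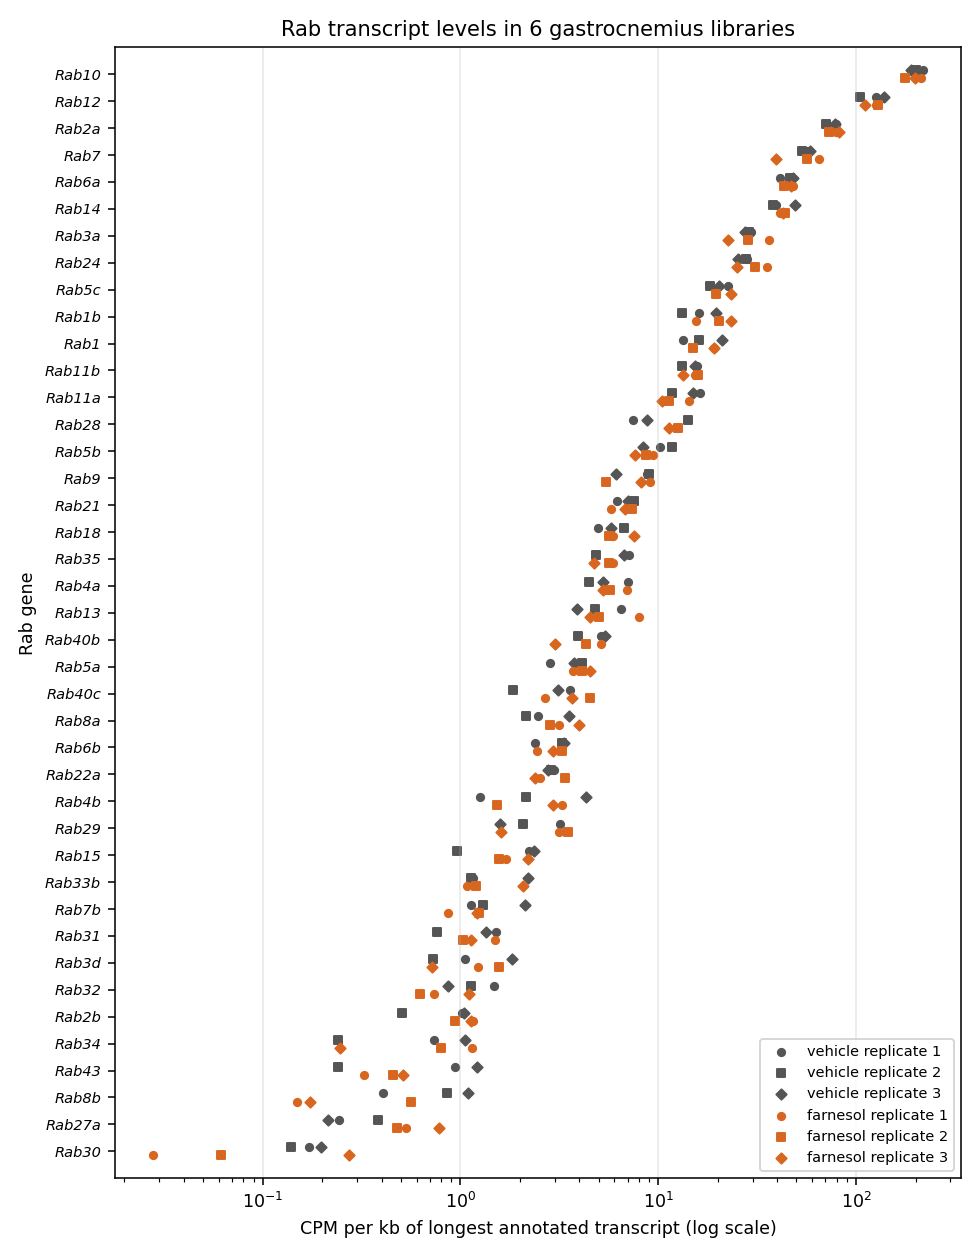
Transcript level of each of the 41 tested Rab genes in the 6 libraries, in CPM per kb of the longest annotated transcript on a log axis, with vehicle in grey and farnesol in orange. Rab10 and Rab12 lie to the right of all other genes in every library, and the points of the 2 treatments overlap in 40 of 41 rows, Rab27a being the exception.

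Farnesol and vehicle libraries were compared to ask whether the transcripts of the Rab family differed after farnesol feeding. No Rab transcript passed the test: in edgeR's quasi-likelihood test 0 of 41 passed an adjusted p of 0.05, where 0.0% of the 11674 genes tested passed, and the smallest adjusted p of a Rab gene rounded to 1. DESeq2 and limma-voom also called 0 Rab genes. An unadjusted p under 0.05 was reached by 1 of 41, Rab8b, against 3.01% of all tested genes. Farnesol and vehicle libraries were fully separated in 1 of 41, Rab27a, against 8.82% of all tested genes. Both shares are near or below the background and are no result about the family.

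The log2 fold change, farnesol minus vehicle, was above 0 in 21 and below 0 in 20 of the 41 genes, where 49.1% of all tested genes were above 0. Its median was 0.01 for the Rab genes and −0.01 for all tested genes. The middle of the Rab values, between the quartiles, ran from −0.06 to 0.13, against −0.18 to 0.18 over all tested genes, which were not matched to the Rab genes on depth. A total of 20 Rab genes lay within 0.1 of 0, and the extremes were Rab8b at −1.39 and Rab27a at 1.08. The median of the Rab genes was −0.02 without farnesol replicate 1.

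**Figure D2:**
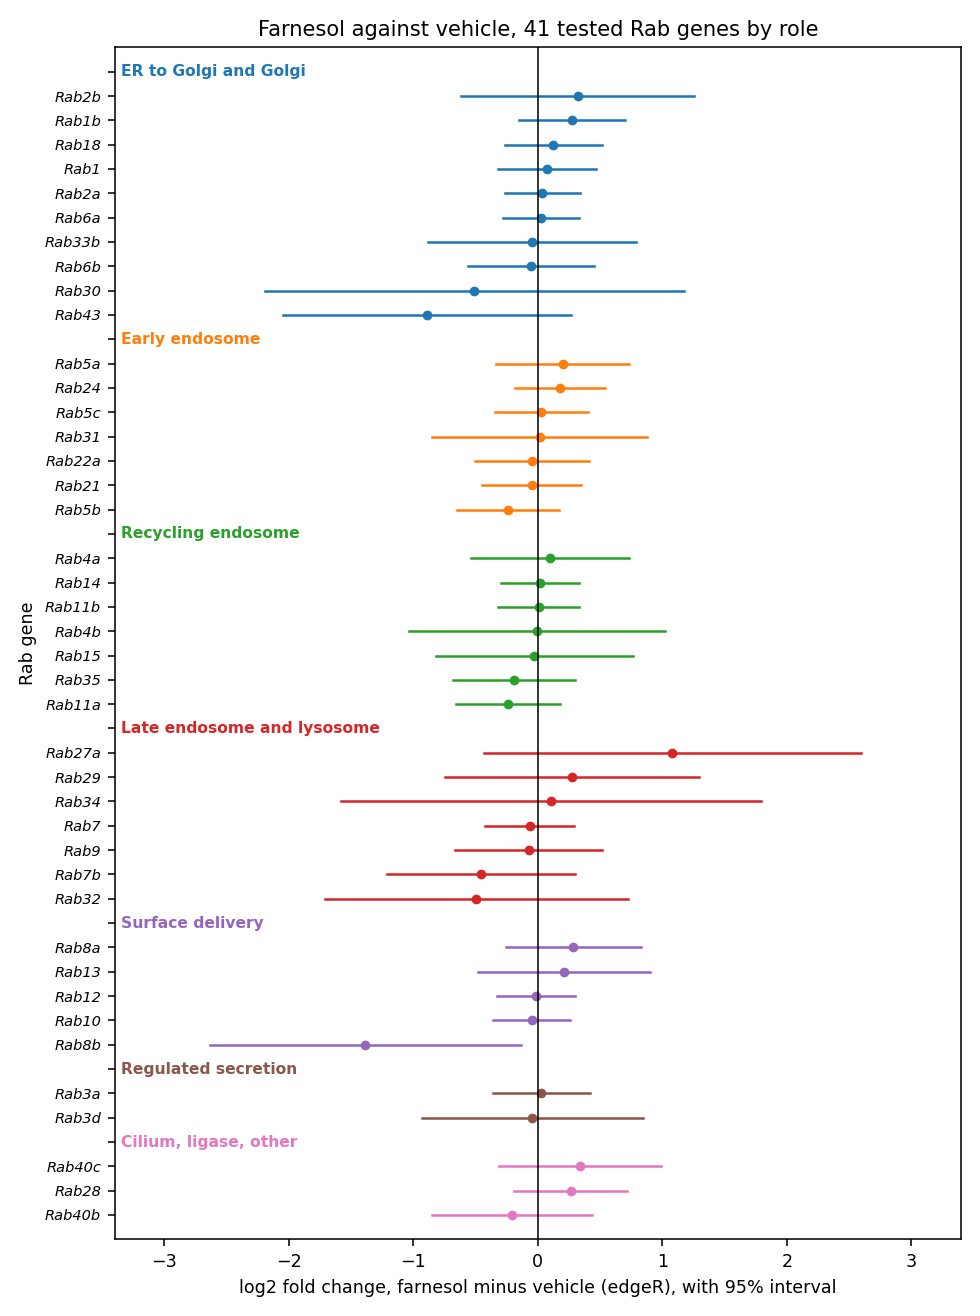
Log2 fold change of farnesol over vehicle in edgeR (points) with its 95% interval (lines) for the 41 tested Rab genes, grouped by the compartment they serve. The interval of Rab8b is the only one of the 41 that leaves out 0, and its adjusted p is 1.

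Rab8, Rab10, Rab12 and Rab13 proteins form a related group that acts in the delivery of vesicles to the surface and in tubular carriers. All 5 of its genes were tested, 2 higher and 3 lower, with a median log2 fold change of −0.02. Rab8b (chromosome 9, 66843609 to 66919705), a Rab of surface-directed membrane traffic, stood at 1.92, 4.05 and 5.17 CPM in the vehicle libraries and 0.705, 2.68 and 0.826 CPM in the farnesol libraries. Farnesol replicates 1 and 3 were the lowest of the 6, while farnesol replicate 2 lay above vehicle replicate 1, so the groups overlapped. Its level after farnesol was 0.383-fold (95% interval 0.161 to 0.912), with an unadjusted p of 0.0317 in edgeR and a mean of 28.2 counts per library. The log2 fold change ran from −2.27 to −1.06 with each library left out, and the unadjusted p was above 0.05 in 4 of these 6 fits. Rab8a, the close relative of Rab8b, was found at 11.2, 9.82 and 16 CPM in the vehicle libraries and 14.3, 12.9 and 18.1 CPM in the farnesol libraries. The sign was opposite to that of Rab8b, with overlapping groups, and the fold change was 1.22 (95% interval 0.835 to 1.77), or 0.28 (SE 0.26) on the log2 scale, with an unadjusted p of 0.292. Rab13, which serves cell junctions and GLUT4 traffic, was measured at 9.2, 6.78 and 5.51 CPM in the vehicle libraries and 11.3, 7.11 and 6.4 CPM in the farnesol libraries. Farnesol replicate 1 was its highest library, and the fold change was 1.16 (95% interval 0.718 to 1.86), or 0.21 (SE 0.33) on the log2 scale, with an unadjusted p of 0.534. The log2 value was −0.08 without farnesol replicate 1.

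The abundant members of this group were among the most precisely measured Rab genes. Rab10 stood at 763, 706 and 669 CPM in the vehicle libraries and 750.1, 619.8 and 697 CPM in the farnesol libraries, with farnesol values on both sides of the vehicle mean and a fold change of 0.966 (95% interval 0.781 to 1.2). Rab12 stood at 263, 217 and 285 CPM in the vehicle libraries and 261, 266 and 229 CPM in the farnesol libraries, which is 0.988-fold (95% interval 0.795 to 1.23). These intervals leave out a change as large as 1.5-fold in either direction for both genes.

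Rab genes of the route from the endoplasmic reticulum through the Golgi numbered 15, of which 10 were tested, 6 higher and 4 lower, with a median of 0.03. Rab43 (chromosome 6, 87788853 to 87812164), of the Golgi, was measured at 4.31, 1.11 and 5.59 CPM in the vehicle libraries and 1.5, 2.09 and 2.37 CPM in the farnesol libraries. Vehicle replicates 1 and 3 were the highest and vehicle replicate 2 the lowest of the 6 libraries, so the farnesol values lay inside the vehicle range. Across the 6 libraries the fold change was 0.539 (95% interval 0.242 to 1.2), or −0.89 (SE 0.56) on the log2 scale, with an unadjusted p of 0.125. On the log2 scale, leaving out vehicle replicate 2 gave −1.32 while leaving out vehicle replicate 3 gave −0.45. Rab1b, which with Rab1 carries vesicles from the endoplasmic reticulum to the Golgi, stood at 30.7, 25.2 and 37.7 CPM in the vehicle libraries and 29.8, 39 and 44.7 CPM in the farnesol libraries. Farnesol replicates 2 and 3 were the highest, and farnesol replicate 1 fell among the vehicle values, for a fold change of 1.21 (95% interval 0.901 to 1.63) and an unadjusted p of 0.193. Rab2b, a minor relative of Rab2a, was at 3.64, 1.82 and 3.73 CPM in the vehicle libraries and 4.14, 3.35 and 4.02 CPM in the farnesol libraries. Vehicle replicate 2 was its lowest library, and the fold change was 1.25 (95% interval 0.651 to 2.39), or 0.32 (SE 0.45) on the log2 scale, with an unadjusted p of 0.488. The remaining tested genes of this route (Rab18, Rab30, Rab1, Rab2a, Rab6a, Rab6b and Rab33b) had log2 fold changes of −0.51 to 0.13. Rab30 gave the lowest of these with an SE of 0.81; its farnesol values of 0.264, 0.586 and 2.58 CPM lay on both sides of its vehicle values of 1.63, 1.32 and 1.86 CPM. Its log2 fold change was −0.04 without farnesol replicate 1 and −1.89 without farnesol replicate 3.

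Early endosome genes, with the Rab5 proteins that govern endosome fusion at their centre, included 7 tested of 8, 4 higher and 3 lower, with a median of 0.02. Rab5b was measured at 32.6, 37.3 and 26.6 CPM in the vehicle libraries and 29.8, 27.6 and 24.2 CPM in the farnesol libraries, with overlapping groups and a fold change of 0.847 (95% interval 0.637 to 1.13). Its unadjusted p was 0.241. Rab5a stood at 9.2, 13.4 and 12.1 CPM in the vehicle libraries and 11.9, 13.3 and 14.7 CPM in the farnesol libraries. Vehicle replicate 1 was its lowest library, and the fold change was 1.15 (95% interval 0.792 to 1.67), or 0.20 (SE 0.26) on the log2 scale, with an unadjusted p of 0.448. Rab5c was at 40.2 ± 4.28 CPM in vehicle against 41 ± 4.42 CPM in farnesol libraries, with a log2 fold change of 0.03 (SE 0.18). The 3 Rab5 genes thus gave values on both sides of 0, and none of the 3 intervals left out 0. Rab24, which the role list placed here, was found at 50.6, 50.1 and 45.5 CPM in the vehicle libraries and 64.3, 55.6 and 45.3 CPM in the farnesol libraries. Farnesol replicates 1 and 2 were above every vehicle library and farnesol replicate 3 was below every one. Here the fold change was 1.13 (95% interval 0.88 to 1.45), or 0.18 (SE 0.17) on the log2 scale, with an unadjusted p of 0.321, and the log2 value was 0.05 without farnesol replicate 1. Rab21, Rab22a and Rab31, of endocytosis and endosomal sorting, had log2 fold changes of −0.05, −0.05 and 0.02.

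Recycling endosome genes numbered 9, with 7 tested, 3 higher and 4 lower and a median of −0.01. Rab11a, a central Rab of the recycling endosome, stood at 38, 27.3 and 34.8 CPM in the vehicle libraries and 33.5, 26.5 and 24.6 CPM in the farnesol libraries. Its groups overlapped and its fold change was 0.845 (95% interval 0.632 to 1.13), with an unadjusted p of 0.241. The log2 value ran from −0.39 without farnesol replicate 1 to −0.14 without vehicle replicate 1. Rab11b was closer to no difference, at 90.2 ± 8.39 CPM in vehicle against 90.7 ± 8.32 CPM in farnesol libraries and 1.01-fold (95% interval 0.802 to 1.26). Rab35, of fast recycling, gave 20.04, 13.7 and 18.9 CPM in the vehicle libraries and 16.7, 16 and 13.4 CPM in the farnesol libraries. The groups overlapped, and the fold change was 0.876 (95% interval 0.622 to 1.23), or −0.19 (SE 0.24) on the log2 scale, with an unadjusted p of 0.43. Rab4a, of rapid return from early endosomes, gave 9.97, 6.38 and 7.46 CPM in the vehicle libraries and 9.87, 8.12 and 7.43 CPM in the farnesol libraries. The groups again overlapped, and the fold change was 1.07 (95% interval 0.687 to 1.66), or 0.10 (SE 0.31) on the log2 scale, with an unadjusted p of 0.759. Rab14, which joins endosomes to the Golgi and to GLUT4 vesicles, was measured at 198, 189.5 and 245 CPM in the vehicle libraries and 207, 218 and 214 CPM in the farnesol libraries. Vehicle replicate 3 was its highest library, and the fold change was 1.01 (95% interval 0.816 to 1.25). Rab15 and Rab4b had log2 fold changes of −0.03 and −0.01.

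Genes of late endosomes, lysosomes and lysosome-related organelles numbered 11, with 7 tested, 3 higher and 4 lower and a median of −0.06. Rab7, the Rab of late endosomes and lysosomes, stood at 120.2, 115 and 127 CPM in the vehicle libraries and 139.7, 122 and 84.6 CPM in the farnesol libraries. Farnesol replicate 1 was the highest and farnesol replicate 3 the lowest of the 6 libraries, and the fold change was 0.956 (95% interval 0.746 to 1.22). On the log2 scale it ran from −0.23 without farnesol replicate 1 to 0.11 without farnesol replicate 3. Rab27a (chromosome 9, 73044810 to 73097623), which docks secretory lysosomes and granules, was measured at 0.767, 1.21 and 0.678 CPM in the vehicle libraries and 1.67, 1.51 and 2.48 CPM in the farnesol libraries. All 3 farnesol libraries exceeded all 3 vehicle libraries, but its mean was only 14.8 counts per library. Its level after farnesol was 2.12-fold (95% interval 0.742 to 6.04), with an unadjusted p of 0.152. The log2 fold change was 1.08 (SE 0.73) and ranged from 0.84 to 1.37 with each library left out. Rab7b, a Rab of late endosome to Golgi transport, stood at 5.08, 5.87 and 9.49 CPM in the vehicle libraries and 3.88, 5.61 and 5.47 CPM in the farnesol libraries. Vehicle replicate 3 was its highest library, and the fold change was 0.73 (95% interval 0.432 to 1.23), or −0.45 (SE 0.36) on the log2 scale, with an unadjusted p of 0.226. Rab32, of lysosome-related organelles and mitochondria, stood at 3.16, 2.43 and 1.86 CPM in the vehicle libraries and 1.59, 1.34 and 2.37 CPM in the farnesol libraries. Farnesol replicates 1 and 2 were its lowest libraries, and the fold change was 0.71 (95% interval 0.305 to 1.65), or −0.49 (SE 0.59) on the log2 scale, with an unadjusted p of 0.41. Rab29, Rab9 and Rab34 had log2 fold changes of 0.27, −0.07 and 0.10.

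Some of these Rab genes are strongly expressed in blood-derived cells, and in whole muscle fewer cells of a type and less RNA per cell cannot be told apart. Macrophage markers, of which 9 of 10 were lower, summed to 105 to 242 CPM in vehicle and 128 to 175 CPM in farnesol libraries, and none of the 10 was at 0. Neutrophil and mast cell markers (7 listed genes, of which 4 of 4 tested were higher) summed to 11.3 to 15.1 CPM in vehicle libraries. In farnesol libraries they summed to 15.3 to 21.8 CPM, so the groups lay apart by little. S100a8 and S100a9 stood at 3.26 and 2.93 CPM in farnesol replicate 2, against 0.206 and 0 CPM in farnesol replicate 3. Of the 4 tested genes 1, Mcpt4, was separated, where 4.75% of all tested genes were separated in this direction. In that list the neutrophil genes S100a9, Ngp and Camp were below the filter, with S100a9 at 0 in 2 libraries, Ngp in 3 and Camp in 5. Mcpt4, a mast cell protease named after its values were seen, stood at 2.01, 2.02 and 1.53 CPM in the vehicle libraries and 3.26, 5.11 and 4.64 CPM in the farnesol libraries. Cpa3 and Cma1, mast cell genes of the same list, had overlapping groups. Their log2 fold changes were 0.28 (SE 0.36) and 0.24 (SE 0.54), and reached −0.07 and −0.26 with 1 library left out. Red cell markers, of which 5 of 6 were higher, summed to 3500.3 to 5683 CPM in vehicle and 5472 to 9725 CPM in farnesol libraries. Adipocyte markers, of which 9 of 10 were higher, summed to 454 to 644 CPM in vehicle and 505 to 765 CPM in farnesol libraries. In edgeR, 4 of 6 red cell and 4 of 10 adipocyte markers had an unadjusted p under 0.05, against 3.01% of all tested genes. The groups were separated higher in 1 red cell and 4 adipocyte markers, against 4.75% of all tested genes. Of the macrophage markers, 1 was separated lower, against 4.07%. In these 3 lists 0 genes passed an adjusted p of 0.05 in edgeR. Beside these, Rab27a was higher and Rab32 and Rab7b lower after farnesol, none past the threshold, and the part of such cells in the Rab values was not tested.

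Regulated secretion had 7 genes, of which only Rab3a and Rab3d passed the filter. Rab3a was measured at 45.7, 44.7 and 42.6 CPM in the vehicle libraries and 56.7, 44 and 34.9 CPM in the farnesol libraries. The farnesol values ran wider than the vehicle values on both sides, and the fold change was 1.02 (95% interval 0.779 to 1.34), or 0.03 (SE 0.19) on the log2 scale, with an unadjusted p of 0.883. The log2 value was −0.17 without farnesol replicate 1. Rab3d, of secretory granules, stood at 4.12, 2.83 and 7.12 CPM in the vehicle libraries and 4.76, 6.11 and 2.79 CPM in the farnesol libraries. Vehicle replicate 3 was its highest library, and the fold change was 0.97 (95% interval 0.523 to 1.8), or −0.04 (SE 0.43) on the log2 scale, with an unadjusted p of 0.92. Among the 4 remaining genes, Rab28 of the cilium is known to carry a farnesyl rather than a geranylgeranyl group. It was found at 21.5, 40.9 and 25.3 CPM in the vehicle libraries and 35.9, 36.6 and 32.7 CPM in the farnesol libraries. Vehicle replicate 2 was the highest library and the other 2 vehicle libraries were the lowest, so the farnesol values, which lay close together, fell inside the vehicle range. Its fold change was 1.2 (95% interval 0.877 to 1.65), with an unadjusted p of 0.239, and the log2 fold change was 0.58 without vehicle replicate 2, with an unadjusted p of 0.0144 and an adjusted p of 0.998 in edgeR. Rab40c and Rab40b join a Rab domain to a ubiquitin ligase adaptor. Rab40c was found at 10.4, 5.36 and 9.07 CPM in the vehicle libraries and 7.76, 13.1 and 10.6 CPM in the farnesol libraries. Vehicle replicate 2 was its lowest library, and the fold change was 1.27 (95% interval 0.807 to 1.99), or 0.34 (SE 0.31) on the log2 scale, with an unadjusted p of 0.288. Rab40b was found at 9.59, 7.29 and 10.00 CPM in the vehicle libraries and 9.61, 8.04 and 5.57 CPM in the farnesol libraries. Farnesol replicate 3 was its lowest library, and the fold change was 0.865 (95% interval 0.554 to 1.35), or −0.21 (SE 0.31) on the log2 scale, with an unadjusted p of 0.508. The log2 value ran from −0.39 without farnesol replicate 1 to −0.03 without farnesol replicate 3.

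The 18 Rab genes that were not tested include several known from epithelia, neurons and glands. A count of 0 in every library of a group allows up to 3 counts, which is 0.0934 CPM over the vehicle group and 0.091 CPM over the farnesol group, for counting error only. Of the 6 genes at 0, among them the epithelial Rab17 and Rab25, Rab26 shares exons with Traf7 on the same strand, and how reads of both were assigned is not given, so its 0 is uncertain. Rab20 shares exons with E230013L22Rik on the opposite strand, and the handling of strand is not given, so its 0 is uncertain as well. Rab17, Rab25, Rab38 and Rab44 were not detectable at this depth. Rab39 had 0, 0 and 0 counts in the vehicle libraries and 4, 11 and 9 counts in the farnesol libraries, and Rab37 had 0, 0 and 0 counts in the vehicle libraries and 4, 7 and 5 counts in the farnesol libraries. Both were thus at 0 in vehicle and present in each farnesol library. Against 3 counts over the vehicle group, the farnesol group was 7.79-fold higher for Rab39 and 5.19-fold higher for Rab37. These ratios hold no counting error of the farnesol group and no spread between libraries, so they are not lower bounds. Without the filter their unadjusted p was 0.0126 and 0.0287 and the adjusted p 0.968 for both in edgeR. Of the 4950 genes below the filter with a count, 0.768% had this pattern and 0.808% the reverse. These genes were not matched to Rab39 and Rab37 on depth, and those with the fewest counts could not show either pattern. Rab23, of the cilium, had 2, 25 and 18 counts in the vehicle libraries and 3, 6 and 4 counts in the farnesol libraries, with vehicle replicate 1 below every farnesol library. Rab27b, Rab33a, Rab3b and Rab42 had 12 to 32 counts in all 6 libraries together, and each was at 0 in at least 1. The others (Rab19, Rab36, Rab39b, Rab3c and Rab9b) had at most 9 counts together.

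Many Rab proteins exist as close relatives, and their shares within a subfamily were compared per kilobase. A share within a library takes the scaling of that library out. It does not take out a trend with transcript length, such as that of farnesol replicate 1 (Spearman correlation −0.245), where relatives differ in length. Of the Rab8 pair, Rab8b made up 14.1%, 28.4% and 23.7% in the vehicle libraries and 4.53%, 16.6% and 4.21% in the farnesol libraries. Farnesol replicates 1 and 3 were the lowest and farnesol replicate 2 lay above vehicle replicate 1, with group means of 22.1% ± 7.27 and 8.46% ± 7.09 in vehicle and farnesol libraries. On this scale the Rab11 pair was nearly even, and Rab11a took 50.7%, 47% and 49.4% in the vehicle libraries and 48.4%, 41.6% and 44.1% in the farnesol libraries. Farnesol replicates 2 and 3 lay below every vehicle library and farnesol replicate 1 inside their range. The evenness depends on the scale: without the division by length, Rab11a held 21.4% to 28.2% of the pair's CPM over the 6 libraries. Rab1b was at 49.3% ± 4.78 and 52.5% ± 6.8 of the Rab1 pair in vehicle and farnesol libraries, and Rab40b at 63.4% ± 4.43 and 53.3% ± 11.1 of the Rab40 pair, both with overlapping groups. Without the division by length these shares ran over the 6 libraries at 35.5% to 48% for Rab1b and 34.4% to 57.6% for Rab40b. Within the Rab5 trio, Rab5c led at 59.9% ± 5.47 and 62.1% ± 3.27, then Rab5b at 29.6% ± 4.35 and 25.7% ± 3.79 and Rab5a at 10.6% ± 2.25 and 12.3% ± 0.839, an order that held in each of the 6 libraries per kilobase. In CPM, vehicle replicate 2 had Rab5b at 37.3 and Rab5c at 36, so the lead of Rab5c did not hold there. Other subfamilies were dominated by 1 gene in all 6 libraries: Rab2a held at least 98.6% of the Rab2 pair, Rab6a at least 92.9% of the Rab6 pair, Rab7 at least 96.5% of Rab7 and Rab7b, and Rab3a at least 93.7% of the Rab3 genes. In CPM, their lowest shares were 97.6%, 89.4%, 93% and 85.5%, in the same order.

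**Figure D3:**
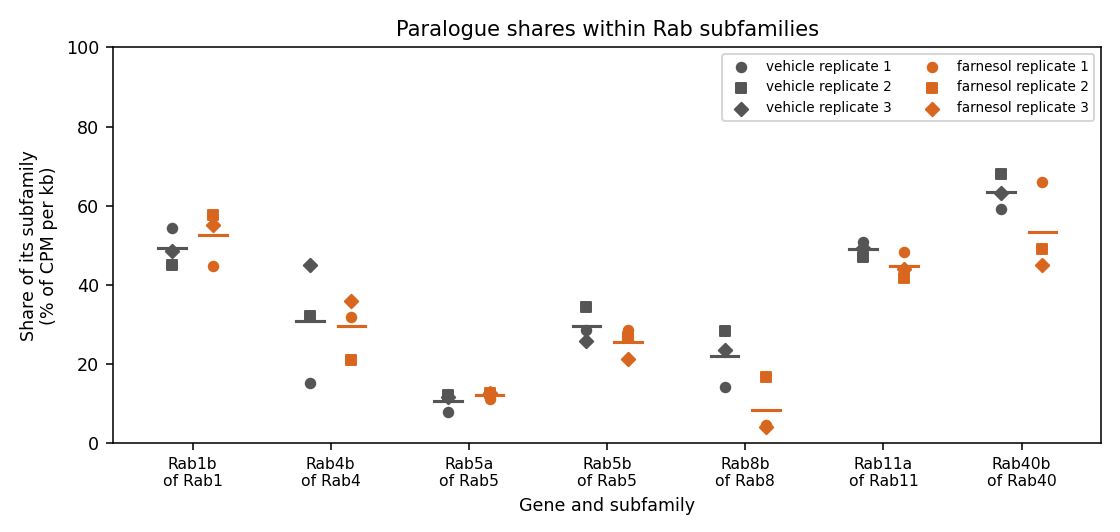
Share of 7 Rab genes within their subfamily, as a percent of the subfamily's CPM per kb, in each library (points, vehicle grey and farnesol orange) with group means (bars). Farnesol replicates 1 and 3 are the lowest points for Rab8b, and the 2 groups overlap for all 7 genes.

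Depth set how small a difference could be seen. The 6 genes with a mean of at least 1000 counts per library had SEs of 0.15 to 0.17 and log2 fold changes of −0.06 to 0.04, and their 95% intervals all lay between 0.746-fold and 1.27-fold. The 18 genes with 100 to 1000 counts had SEs of 0.16 to 0.31 and log2 fold changes of −0.24 to 0.34. The 17 genes under 100 counts, which include Rab8b, Rab43 and Rab27a, had SEs of 0.31 to 0.81. In all, the 95% interval stayed within 1.5-fold in either direction for 15 of 41 Rab genes, against 28.7% of all tested genes. The genes behind that share were not matched to the Rab genes on depth, so it is no result about the family. The 15 Rab genes were Rab1, Rab2a, Rab3a, Rab5c, Rab6a, Rab6b, Rab7, Rab10, Rab11b, Rab12, Rab14, Rab18, Rab21, Rab22a and Rab24.

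**Figure D4:**
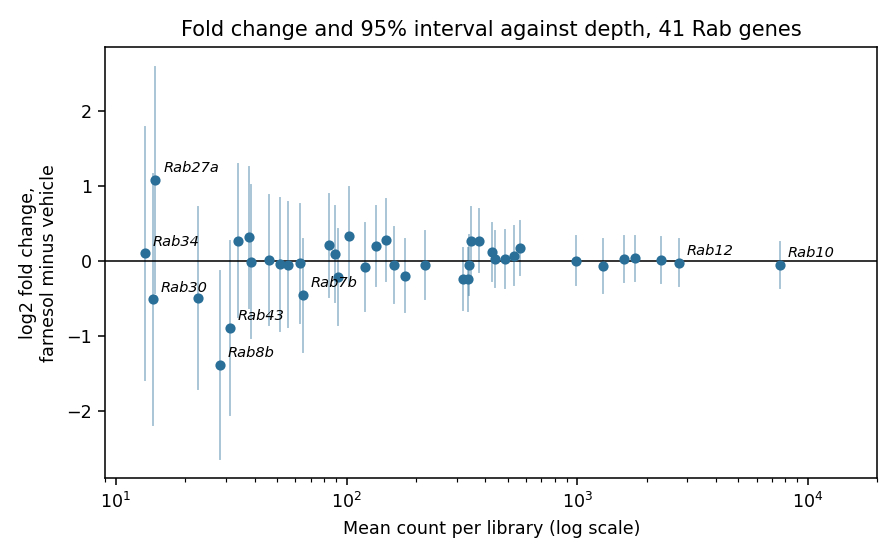
Log2 fold change of farnesol over vehicle (points) with its 95% interval (lines) against the mean count per library on a log axis, for the 41 tested Rab genes. Values beyond 0.5 in either direction occur only under 100 counts, where the intervals are widest.

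A list of 9 genes that make, attach and handle the geranylgeranyl group of Rab proteins was tested, and 0 passed an adjusted p of 0.05 or reached an unadjusted p under 0.05 in edgeR. Of these, 6 were higher and 3 lower, with a median log2 fold change of 0.24 against −0.01 for all tested genes. The median was 0.0046 without farnesol replicate 1 and 0.13 without vehicle replicate 1, and a median of so few genes depends on which genes the list holds. Rabggta and Rabggtb encode the subunits of the Rab geranylgeranyl transferase. Rabggta was measured at 5.56, 3.74 and 5.76 CPM in the vehicle libraries and 7.05, 5.44 and 8.67 CPM in the farnesol libraries, with farnesol replicate 2 inside the vehicle range and a fold change of 1.4 (95% interval 0.841 to 2.32). Rabggtb stood at 24.6, 31.1 and 32.1 CPM in the vehicle libraries and 33.3, 39.3 and 31 CPM in the farnesol libraries, with overlapping groups and a fold change of 1.18 (95% interval 0.892 to 1.56). Ggps1, which makes geranylgeranyl diphosphate, stood at 8.85 ± 1.22 CPM in vehicle against 7.41 ± 1.21 CPM in farnesol libraries, with a log2 fold change of −0.25 (SE 0.30).

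The escort proteins that present new Rab proteins to the transferase are encoded by Chm, at 30.2 ± 3.52 CPM in vehicle against 30.9 ± 7.1 CPM in farnesol libraries (log2 fold change 0.03, SE 0.20), and by Chml, at 0.964 ± 0.341 CPM in vehicle against 1.45 ± 0.504 CPM in farnesol libraries (log2 fold change 0.59, SE 0.76). Gdi2 encodes an inhibitor that extracts used Rab proteins from membranes. It stood at 107.7, 107.2 and 117.0 CPM in the vehicle libraries and 98.4, 106.5 and 103.4 CPM in the farnesol libraries. Every farnesol library lay below every vehicle library, with a fold change of 0.929 (95% interval 0.75 to 1.15), where 4.07% of all tested genes were separated in this direction. Pde6d, a carrier that keeps prenylated proteins soluble, stood at 16.9, 17.1 and 16.8 CPM in the vehicle libraries and 22.5, 19 and 21.4 CPM in the farnesol libraries. Its farnesol libraries were all above its vehicle libraries, which lay close together, and the fold change was 1.24 (95% interval 0.908 to 1.69) with an unadjusted p of 0.168; 4.75% of all tested genes were separated in this direction. Rabac1, a membrane receptor for prenylated Rab proteins, had 105 ± 10.8 CPM in vehicle against 124 ± 33.8 CPM in farnesol libraries, with a log2 fold change of 0.24 (SE 0.18), or 0.0046 without farnesol replicate 1. Rabif, a chaperone of nucleotide-free Rab proteins, had 3.93 ± 1.49 CPM in vehicle against 3.69 ± 1.13 CPM in farnesol libraries, with a log2 fold change of −0.10 (SE 0.45).

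**Figure D5:**
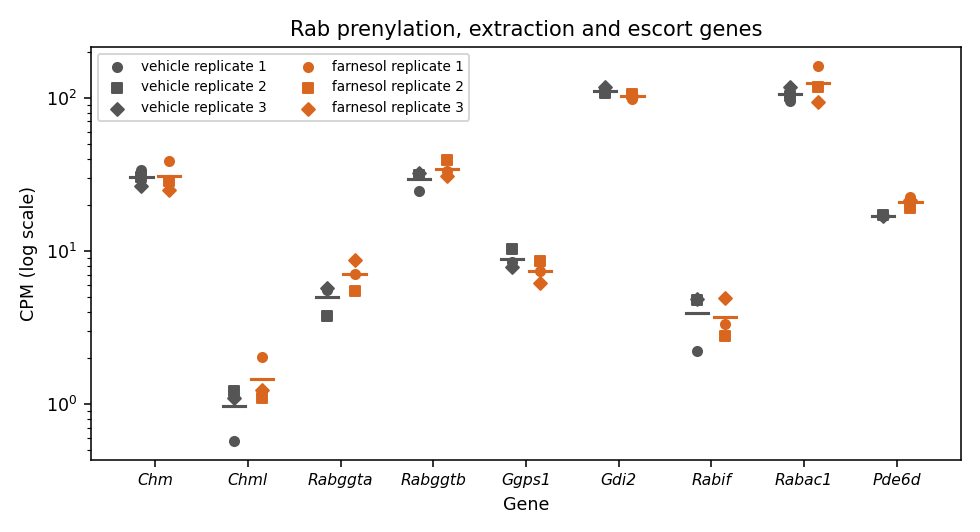
CPM on a log axis of 9 genes of Rab prenylation, extraction and escort in each library (points, vehicle grey and farnesol orange) with group means (bars). The points of the 2 groups separate only for Gdi2, lower after farnesol, and Pde6d, higher after farnesol.

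The wider Rab pathway was read from 5 further lists, in which 0 genes passed an adjusted p of 0.05 in edgeR. Of 30 tested exchange factors, which load Rab proteins with GTP, 10 were higher and 20 lower, with a median of −0.07. Hps4, part of the exchange factor of Rab32 and Rab38, stood at 0.671, 0.81 and 1.86 CPM in the vehicle libraries and 3.7, 2.43 and 2.99 CPM in the farnesol libraries. The 3 farnesol libraries were all higher, with a fold change of 2.69 (95% interval 1.1 to 6.58), an unadjusted p of 0.0322 and a mean of 22.8 counts per library. Madd, the exchange factor of Rab3 and Rab27 proteins, was at 2.46 ± 0.76 CPM in vehicle against 1.16 ± 0.294 CPM in farnesol libraries (log2 fold change −1.08, SE 0.64), and Gapvd1, of Rab5, at 43.7 ± 5.41 CPM in vehicle against 35.6 ± 2.26 CPM in farnesol libraries (log2 fold change −0.30, SE 0.18), both with every farnesol library below every vehicle library. Of the 30 genes, 1 was separated higher and 2 lower, where 4.75% and 4.07% of all tested genes were separated in these directions. An unadjusted p under 0.05 in edgeR was reached by 1 of 30, Hps4, against 3.01% of all tested genes. Many, but not all, TBC domain proteins speed GTP hydrolysis by Rab proteins. Of 32 tested genes of TBC domain proteins, 9 were higher and 23 lower, with a median of −0.09. Among them 1, Tbc1d8b, was separated higher and 0 lower. Tbc1d24 was at 8.93 ± 3.22 CPM in vehicle against 5.54 ± 1.1 CPM in farnesol libraries (log2 fold change −0.69, SE 0.34), Rabgap1l at 9.6 ± 0.604 CPM in vehicle against 6.69 ± 2.07 CPM in farnesol libraries (log2 fold change −0.52, SE 0.31) and Tbc1d8b at 2.31 ± 0.17 CPM in vehicle against 3.97 ± 0.958 CPM in farnesol libraries (log2 fold change 0.78, SE 0.46).

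Effectors and tethers split into 19 higher and 24 lower of 43 tested, with a median of −0.01, and 3 of them had an unadjusted p under 0.05. Rab11fip5, an effector of Rab11, was measured at 25.9, 28.9 and 26.6 CPM in the vehicle libraries and 37.1, 37.9 and 35.8 CPM in the farnesol libraries, with all farnesol libraries higher and close together and a fold change of 1.36 (95% interval 1.05 to 1.77) and an unadjusted p of 0.0241. Rbsn, which encodes the Rab4 and Rab5 effector rabenosyn-5, stood at 15.4, 16.7 and 15.8 CPM in the vehicle libraries and 12.5, 8.2 and 11 CPM in the farnesol libraries, with all farnesol libraries lower and a fold change of 0.663 (95% interval 0.461 to 0.954) and an unadjusted p of 0.0286. Lrrk1, a kinase that acts on Rab7, stood at 2.97 ± 0.773 CPM in vehicle against 5.75 ± 1.27 CPM in farnesol libraries, a fold change of 1.93 (95% interval 1.08 to 3.48) and an unadjusted p of 0.0293. The share with an unadjusted p under 0.05, 3 of 43, can be read beside 3.01% of all tested genes. Among the 43, the groups were separated in 2 genes higher and 1 lower, where 4.75% and 4.07% of all tested genes were.

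The GLUT4 vesicle traffic list had 16 tested genes, with 10 of them lower, 6 higher and the median at −0.07. Tbc1d1, the Rab GAP through which muscle contraction releases GLUT4 vesicles, stood at 78.1, 59.7 and 62.5 CPM in the vehicle libraries and 72.7, 44.6 and 45.2 CPM in the farnesol libraries. Farnesol replicate 1 lay inside the vehicle range and the other 2 farnesol libraries below it, for a log2 fold change of −0.30 (SE 0.19) that ran from −0.57 without farnesol replicate 1 to −0.17 without vehicle replicate 1. Lrp1 was at 54.8 ± 8.39 CPM in vehicle against 43.7 ± 3.21 CPM in farnesol libraries (log2 fold change −0.33, SE 0.17) and Ralgapb at 24.1 ± 0.178 CPM in vehicle against 30.3 ± 1.73 CPM in farnesol libraries (log2 fold change 0.33, SE 0.19). The list of retromer and endosomal sorting had 22 tested genes, with 16 of them lower, 6 higher and the median at −0.12. Vps26b, a retromer subunit, was the 1 gene of 22 with an unadjusted p under 0.05 in edgeR, against 3.01% of all tested genes. It stood at 28.3, 29.6 and 24.9 CPM in the vehicle libraries and 38.7, 36.1 and 37.4 CPM in the farnesol libraries. All its farnesol libraries were higher, with a fold change of 1.35 (95% interval 1.04 to 1.77) and an unadjusted p of 0.0272. In this list 1 gene was separated higher and 1 lower, where 4.75% and 4.07% of all tested genes were. Hgs, of the sorting complex ESCRT-0, was at 22.4 ± 4.52 CPM in vehicle against 17.8 ± 1.18 CPM in farnesol libraries (log2 fold change −0.34, SE 0.22) and Uvrag at 15 ± 2.42 CPM in vehicle against 12.2 ± 5.75 CPM in farnesol libraries (log2 fold change −0.29, SE 0.29). The value of Uvrag ran from −0.75 without farnesol replicate 1 to −0.11 without farnesol replicate 3.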

How the data were processed

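Per the labels' protocols, a Lexogen QuantSeq kit turned 500 ng of total RNA into each library. The deposited values are raw counts per gene symbol, 1 table per library, and Bowtie2, bedtools and mm10 are named in the submitters' processing notes. Their versions, the annotation and the handling of strand, copied reads and reads with several matches are, of these tables, not given in any source used here. Rab10, Rab20, Rab24, Rab2b, Rab3a, Rab5a and Rab6a share exons with a counted gene on the opposite strand. Close paralogues may share reads. The values of all these genes are therefore uncertain.

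Groups came from the sample titles. Genes were tested with edgeR 4.0.16 in R 4.3.3 (filterByExpr, TMM, glmQLFit with robust = TRUE, glmQLFTest), with Benjamini-Hochberg adjustment over 11674 genes and a threshold of 0.05. The SE was taken from each gene's log2 fold change and F statistic, and 95% intervals use the t distribution. The method was tested on simulated data with large changes and the same dispersion for every gene. That test does not show how the method performs on small differences. Alternatives were DESeq2 1.42.0, limma-voom (limma 3.58.1), RLE scaling, no filter, a mean of 5 CPM, a replicate block and each library left out.

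Positions are from RefSeq GRCm38.p6, where Rab1 is listed as Rab1a, and lengths from GENCODE vM21. Values in full were given for Rab genes with an unadjusted p under 0.05 and the 3 of smallest p in each role group. Every prenylation gene reported and the 3 of smallest p in each other list were named. Rab10, Rab12, Rab7, Rab14, Rab5c, Rab11b, Slc2a4, Mcpt4, Cpa3, Cma1, S100a8, S100a9 and the untested genes were chosen after their values were seen. The genes and lists were chosen with earlier results of these data known. Same-numbered libraries of the 2 groups had correlations of deviations of 0.04, 0.06 and −0.02, so the numbers were not taken as pairs. A listed gene is not reported here, and the counts and median of the prenylation list leave it out, which moves that median by over 1.5 times. Prenylation motifs of the proteins were not analysed here.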

Additional observations from a re-analysis of the deposited data

How the results depend on the processing

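Under the 12 alternatives 0 Rab genes passed the threshold, with a smallest adjusted p of 0.968. Over all genes, edgeR called 13 genes without the filter, and between 0 and 3 genes with 1 library left out, the 3 without vehicle replicate 2. The median log2 fold change of the Rab genes lay between −0.051 and 0.060 with 1 library left out. That of the prenylation genes lay between 0.0046 (without farnesol replicate 1) and 0.30 (without vehicle replicate 3). With the replicate block it was 0.21 for prenylation genes and 0.026 for the Rab genes, and the block called 0 genes.

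With 1 library left out, 23 of the 41 tested Rab genes changed sign in at least 1 fit, none of them called, including Rab7, Rab10, Rab12 and Rab14. Of the 20 Rab genes named by rule, 4 did so. The log2 fold change then ran from −0.082 (without farnesol replicate 1) to 0.43 for Rab13, from −0.17 (without farnesol replicate 1) to 0.18 for Rab3a and from −0.31 to 0.39 for Rab3d, which was above 0 without vehicle replicate 3 or, at 0.21, farnesol replicate 3. Rab4a ran from −0.038 (without vehicle replicate 2) to 0.29 and was −0.030 without farnesol replicate 1. Of 24 other genes 2 changed sign. Chm ran from −0.17 (without farnesol replicate 1) to 0.16 and was −0.05 without vehicle replicate 3. Rabif ran from −0.38 to 0.081 and was above 0 without vehicle replicate 2, vehicle replicate 3 or farnesol replicate 2. The cause was not tested. All 17 tested Rab genes under 100 counts per library had an SE of at least 0.307, which limits what could be seen.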
